A study of Mus musculus with 10 samples.

Results

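The common gamma chain cytokine receptors and interleukin 15 (IL-15) were examined in 10 subcutaneous CT26 tumors. The 9 genes are Il15 and Il7, which encode ligands, Il15ra, Il2rb, Il2rg, Il4ra, Il7r and Il21r, which encode receptor chains, and Jak3, which encodes the kinase bound to the common gamma chain. They were taken by gene name from the 36009 genes of the deposited count table, where all 9 were found, and all 9 were among the 16041 genes that passed the filter on low counts. CT26 is a mouse colorectal carcinoma line. Each tumor was wild type, grew in a female BALB/c mouse and was untreated when a piece was resected for polyA RNA sequencing. Poly(I:C), a synthetic double-stranded RNA, was then applied in a hydrogel to the residual tumor. The 6 mice called responders had complete regression, and the 4 called non-responders had no delay in growth. The ages of single mice and a sequencing batch were not given in the labels, and each library was 1 resected piece of 1 tumor.

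The common gamma chain, the product of Il2rg, is shared by the receptors of IL-2, IL-4, IL-7, IL-9, IL-15 and IL-21. It signals through JAK3, while the chain it pairs with binds JAK1, and together they activate STAT proteins, mainly STAT5 for IL-2, IL-7 and IL-15, STAT6 for IL-4 and STAT3 for IL-21. IL-15 is unusual in that it is held on the surface of macrophages and dendritic cells by IL-15 receptor alpha and presented to neighbouring lymphocytes that carry the beta chain, encoded by Il2rb, and the gamma chain. NK cells and memory CD8 T cells depend on this signal, and naive T cells depend on IL-7.

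Stretches of the promoters were printed because regulators bind near the start of a gene, and because Il15 and Il15ra are known to be induced by interferon. RefSeq windows on GRCm38.p6, from 250 bases before to 50 bases after a start, were matched for 6 of the 9 members, with 7 windows in all because Il15ra has a pair of starts. Il2rb, Il7 and Il15 were not matched. An interferon-stimulated response element (ISRE) was searched on both strands as GAAANNGAA and was found in 3 of the 7 windows, against 8.56% of the 32851 windows of all genes. These were both windows of Il15ra and the window of Jak3. A STAT5-type site searched as TTCNNNGAA lay in 1 of the 7 windows, that of Il7r, against 8.30% of all windows. The sequences are given 5′ to 3′ on the strand of the gene, with the match in capitals and its position counted from the start. The first match of Il15ra lies on the opposite strand. The match at 30 lies in an annotated exon of Il15ra, and the other 3 lie outside the exons.
Il15ra, chr2:11705114-11705182, plus strand, match at -149: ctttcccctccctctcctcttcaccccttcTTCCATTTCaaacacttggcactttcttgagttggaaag
Il15ra, chr2:11705732-11705760, plus strand, match at 30: aagcaaaagcGAAAGCGAAtactccttag
Jak3, chr8:71676210-71676278, plus strand, match at -143: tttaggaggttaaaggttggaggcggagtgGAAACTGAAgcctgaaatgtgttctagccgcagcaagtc
Il7r, chr15:9530000-9530028, minus strand, match at -142: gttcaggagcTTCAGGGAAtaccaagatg

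Of the other motifs, the ETS core CCGGAA lay in the windows of Il15ra and Il2rg (14.9% of all windows), and the RUNX core TGTGGT in those of Il21r, Il2rg and Il7r (16.8% of all windows). The STAT6 spacing of the same half-sites, with 4 bases between them, was in 0 of the 7 windows and in 6.95% of all windows. None of the matches overlapped another in these windows. A match of letters is a description and was not tested as a binding site.

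The libraries held between 23374649 and 38042544 estimated counts, with at least 29065126 in responders and at most 32986456 in non-responders. Non-responder 1 stood apart in the leukocyte signal, with the lowest level of Ptprc, the pan-leukocyte gene that encodes CD45, at a CPM of 181 (the count of a gene scaled to a common library total). Of 10 genes of colon epithelium used to check the label, 5 did not pass the low-count filter. Epcam reached at most 19 counts and Krt8 at most 14 counts in a tumor, while Krt20 lay between 454 and 1865 counts. The p-values measure the spread between these tumors.

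All 9 members had a higher estimate in responders, as did 48.2% of all genes tested. None of the 9 passed the threshold of an adjusted p of 0.05. The largest difference was that of Il2rb, at 1.96-fold (log2 fold change 0.97 ± 0.27, SE) with an edgeR adjusted p of 0.0512. The median log2 fold change of the 9 members was 0.46, against -0.01 for all genes tested. The members were chosen with earlier results of these data known, so this contrast is a description only. Among all genes tested 4.71% were called higher in responders and 3.35% lower. For the members the count was 0 of 9 in either direction by edgeR. By edgeR's unadjusted p under 0.05 it was 6 of 9, beside 4665 of the 16041 genes tested. Limma voom also called 0 of 9 (3.93% of all genes were higher), and DESeq2 called 4 of 9 (10.4% of the 14794 genes to which it gave an adjusted p were higher), namely Il2rb, Il21r, Il15 and Il2rg. With edgeR at an adjusted p under 0.1, the members called were the same 4 against 10.5% of all genes, and under 0.25 there were 6, with Il15ra and Jak3 added, against 19.5% of all genes.

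**Figure D1:**
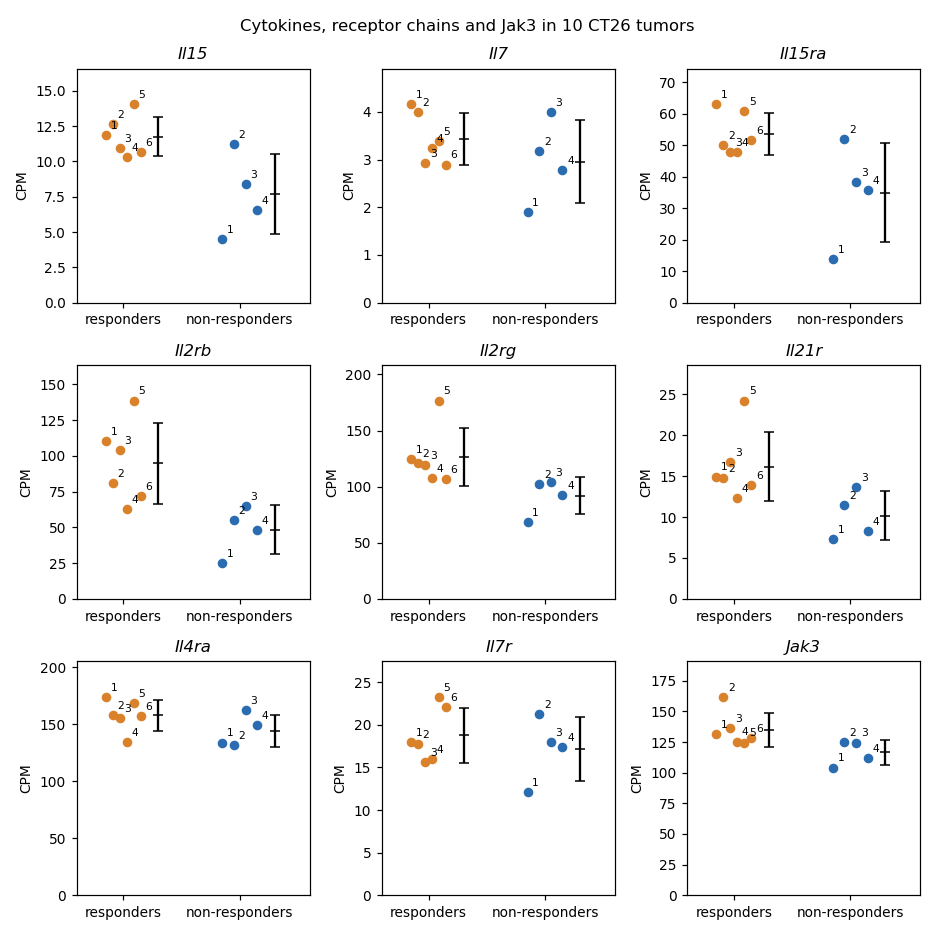
Level of each member in CPM (vertical axis, from 0) in each numbered tumor of the 6 responders (orange) and 4 non-responders (blue), with the mean and SD of each group in black. Il2rg is the member whose groups do not overlap, and non-responder 1 is the lowest tumor in 8 of the 9 panels.

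Il15 (ENSMUSG00000031712, on GRCm38, chromosome 8, 82331632 to 82403222, minus strand) encodes the cytokine that sustains NK cells and memory CD8 T cells. It stood at 10.3 CPM in the lowest responder, 11.4 in the median and 14.0 in the highest, and at 4.52, 11.2, 8.37 and 6.58 CPM in non-responders 1 to 4. Non-responder 2 lay among the responders, while the other 3 non-responders lay below every responder. The log2 fold change was 0.62 ± 0.20 (SE), or 1.53-fold, with an edgeR adjusted p of 0.0754. Il15 passed the test when non-responder 2 was left out, at 0.86 with an edgeR adjusted p of 0.022. Without non-responder 1 it was 0.44 with an adjusted p of 0.145.

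Il15ra (ENSMUSG00000023206, chromosome 2, 11705290 to 11734317, plus strand) encodes the alpha chain that presents IL-15 to neighbouring cells. Responders ran from 47.7 CPM through a median of 50.9 to 63.0, and non-responders 1 to 4 had 13.8, 52.0, 38.4 and 35.7 CPM. As for Il15, non-responder 2 lay within the range of the responders and the other 3 lay below it. The spread among non-responders, 35.0 ± 15.8 CPM (SD, n = 4), was wider than that among responders, 53.5 ± 6.73 CPM (SD, n = 6). Il15ra had a log2 fold change of 0.61 ± 0.26 (SE), or 1.53-fold, with an edgeR adjusted p of 0.150, and of 0.36 without non-responder 1 and 0.87 without non-responder 2.

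Il7 (ENSMUSG00000040329, chromosome 3, 7569994 to 7613760, minus strand) encodes the stromal cytokine that maintains naive and memory T cells, and it was the member with the lowest level. It reached 2.90, 3.31 and 4.16 CPM in the lowest, median and highest responder and 1.90, 3.17, 3.99 and 2.77 CPM in non-responders 1 to 4. The groups overlapped, and only non-responders 1 and 4 lay below the lowest responder. The estimate for Il7 was 0.22 ± 0.19 (log2 fold change with SE, edgeR adjusted p = 0.493) and came to 0.06 without non-responder 1 and 0.39 without non-responder 3.

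Il2rb (ENSMUSG00000068227, chromosome 15, 78479256 to 78495271, minus strand) encodes the beta chain that the IL-2 and IL-15 receptors share, and its product marks NK cells and activated or memory CD8 T cells. It stood at 63.0 CPM in the lowest responder, 92.4 in the median and 139 in the highest, and at 24.8, 55.2, 65.1 and 48.4 CPM in non-responders 1 to 4. The groups met at 1 point, where responder 4 lay just below non-responder 3, and 5 of the 6 responders lay above every non-responder. Without responder 4 the log2 fold change was 1.07 and passed the test (edgeR adjusted p = 0.0359), and without non-responder 1 it was 0.76 (adjusted p = 0.103). Over the 10 fits that each left out 1 tumor, the log2 fold change ran from 0.76 to 1.14.

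Il2rg (ENSMUSG00000031304, chromosome X, 101264378 to 101268255, minus strand) encodes the common gamma chain itself. Its lowest, median and highest responders were at 107, 120.5 and 177 CPM, and non-responders 1 to 4 were at 68.6, 102, 104 and 92.4 CPM. Every responder lay above every non-responder, although the gap between responder 6 and non-responder 3 was narrow. Il2rg was 1 member of 9 with groups apart in this direction, and 5.84% of all genes tested were higher in every responder. Il2rg had a log2 fold change of 0.46 ± 0.15 (SE), or 1.37-fold, with an edgeR adjusted p of 0.0805. Of its exon bases, 30.5% are shared with Gm20489 on the same strand, a gene counted at 0.0302 CPM on average, so the split of reads between them is uncertain.

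Il21r (ENSMUSG00000030745, chromosome 7, 125603429 to 125633570, plus strand) encodes the chain that pairs with the common gamma chain in the receptor for IL-21, a cytokine of helper T cells. Responders had 12.3 CPM at the lowest, 14.9 in the median and 24.2 at the highest, and non-responders 1 to 4 had 7.31, 11.5, 13.7 and 8.26 CPM. Responder 4 lay below non-responder 3, and the other 5 responders lay above every non-responder, as for Il2rb. Il21r differed by a log2 fold change of 0.67 ± 0.21 (SE), or 1.59-fold, with an edgeR adjusted p of 0.0705.

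Il4ra (ENSMUSG00000030748, chromosome 7, 125552120 to 125579474, plus strand) encodes the chain that binds IL-4, and IL-13 when it is paired with another chain. It lay at 134, 158 and 174 CPM in the lowest, median and highest responder and at 134, 132, 162 and 149 CPM in non-responders 1 to 4. The groups overlapped over most of their range, and Il4ra was the member whose lowest tumor was non-responder 2. The difference in Il4ra was 0.13 ± 0.08 (log2 fold change with SE, edgeR adjusted p = 0.294). Its exons share 9.51% of their bases with the antisense gene Gm44876, and the strand setting of the counting was not stated.

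Il7r (ENSMUSG00000003882, chromosome 15, 9505788 to 9530176, minus strand) encodes the IL-7 receptor alpha chain of resting T cells and innate lymphoid cells. It reached 15.6, 17.9 and 23.3 CPM in the lowest, median and highest responder and 12.1, 21.2, 17.99 and 17.4 CPM in non-responders 1 to 4. Non-responder 1 alone lay below the responders, and the difference of 0.13 ± 0.16 (log2 fold change with SE, edgeR adjusted p = 0.627) was 0.0013 without it and 0.25 without non-responder 2.

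Jak3 (ENSMUSG00000031805, chromosome 8, 71676296 to 71690575, plus strand) encodes the kinase that carries the signal of the common gamma chain. It stood at 125 CPM in the lowest responder, 130 in the median and 162 in the highest, and at 104, 125, 125 and 112 CPM in non-responders 1 to 4. Responder 5, which was the highest tumor for 5 other members, was the lowest responder for Jak3 and lay just below non-responder 2. Its log2 fold change was 0.21 ± 0.08 (SE) with an edgeR adjusted p of 0.117. Jak3 shares 7.55% of its exon bases with Insl3 on the same strand, which was counted at 6.81 CPM.

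Most members were low or high in the same tumors. For 8 of the 9 members the lowest of the 10 tumors was non-responder 1. Responder 5 was the highest for 5 members, responder 1 for 3 and responder 2 for 1, which was Jak3. Without non-responder 1 the median log2 fold change of the members was 0.35, against -0.0024 for all genes, and 0 of 9 passed edgeR's test. In that fit 5 of 9 members were at an unadjusted p under 0.05, beside 3654 genes in all.

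**Figure D2:**
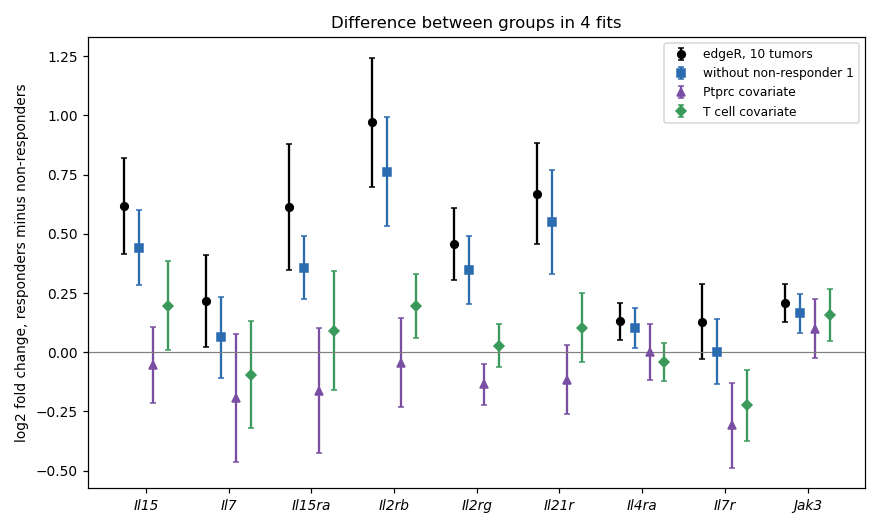
Log2 fold change of each member, responders minus non-responders (vertical axis), in 4 edgeR fits, with bars of 1 SE. The black estimates from all 10 tumors lie above 0 for every member, those without non-responder 1 (blue) are smaller, and with Ptprc as a covariate (purple) 7 of the 9 lie below 0.

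Levels between genes were compared as CPM per kilobase (kb) of exon model. Il2rg was the most abundant member, at a median of 45.0 CPM per kb over the 10 tumors, followed by Il4ra at 26.01, Jak3 at 23.4, Il2rb at 16.0 and Il15ra at 11.0. Il15, Il21r and Il7r followed at 4.79, 4.15 and 3.83 CPM per kb, and Il7 was lowest at 0.566. Il2rg was above Il4ra in 10 of 10 tumors, and so were Il2rb above Il15ra, Il15ra above Il15 and Il7r above Il7. The order of Il2rb and Il15ra depended on the exon model. With the length of the longest transcript, the medians over the 10 tumors were 16.3 CPM per kb for Il2rb and 21.1 for Il15ra, the reverse order. Il4ra was above Jak3 in 7 tumors, Jak3 above Il2rb in 8, Il15 above Il21r in 6 and Il21r above Il7r in 6, so these neighbours had no fixed order. Among neighbours in this order, the ranges were apart for Il7r and Il7 alone.

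**Figure D3:**
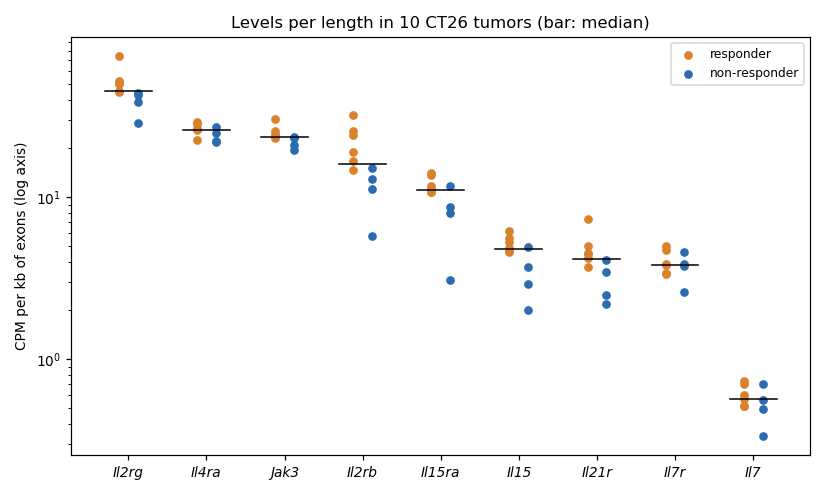
Level of each member in CPM per kb of exons (vertical log axis) in the 6 responders (orange) and 4 non-responders (blue), with the median of the 10 tumors as a bar. Il2rg stands highest at a median of 45.0 CPM per kb and Il7 lowest at 0.566.

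The receptor chains were not in equal supply on this scale. The common gamma chain exceeded the beta chain in every tumor, by a factor of 2.03 to 3.08 in responders (median 2.48) and of 4.97, 3.32, 2.88 and 3.43 in non-responders 1 to 4. The factor was highest in non-responder 1, which had the lowest Il2rb, and the groups overlapped between responder 4 and non-responder 3. Il15ra exceeded its ligand by a factor of 2.01 to 2.70 in responders and of 1.55 to 2.76 in non-responders, with overlapping groups. These factors depended on the exon model, since lengths of the longest transcript gave 75.5 CPM per kb for Il2rg and 23.1 for Il15ra in responders, against 52.9 and 12.04 with all exons.

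The ligand Il15 and its presenting chain Il15ra followed each other when the 10 tumors were pooled. For both genes 3 non-responders lay below every responder, so the pooled values include the difference between groups. Over all 10 tumors, where both genes overlapped between groups, Pearson's r of log2 CPM was 0.941 (permutation p = 0.00017, adjusted p = 0.00034 over 2 pairs) and Spearman's rho was 0.855 (permutation p = 0.00311, adjusted p = 0.00622). With non-responders 1 and 4 left out, as those farthest from the median of Il15, r was 0.841. Among responders alone r was 0.636 (exact permutation p = 0.182, adjusted p = 0.364) and rho was 0.486 (exact permutation p = 0.356, adjusted p = 0.533), so the relation was not shown within that group. No value was taken over the 4 non-responders. Il7 and Il7r, the other pair of ligand and receptor, gave a pooled r of 0.531 (permutation p = 0.117) and rho of 0.394 (permutation p = 0.262), and r was -0.01 without non-responder 1 and responder 1. Within responders it was -0.07 (exact permutation p = 0.911).

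Chains that share a receptor were followed within the 6 responders, in 6 pairs in all with the pairs above. Il2rb and Il2rg had an r of 0.860 (exact permutation p = 0.00833, adjusted p = 0.0458) and a rho of 0.886 (exact permutation p = 0.0333, adjusted p = 0.2). Without responders 5 and 4, r was 0.779. Il21r and Il2rg had an r of 0.953 (exact permutation p = 0.0153, adjusted p = 0.0458) and a rho of 0.771 (exact permutation p = 0.103, adjusted p = 0.206). That relation rested on the same tumors, since r was 0.538 without responders 5 and 4. Il4ra and Il2rg had an r of 0.574 (exact permutation p = 0.246) and a rho of 0.771 (exact permutation p = 0.103). Il2rg and Jak3, the chain and its kinase, had an r of -0.17 (exact permutation p = 0.676), which was 0.562 without responder 5. No rank correlation of the 6 pairs passed adjustment. The calls for Il2rb with Il2rg and Il21r with Il2rg were lost with DESeq2 size factors (adjusted exact permutation p = 0.05 for each). They were also lost when any 1 responder was left out (adjusted exact permutation p from 0.075 to 0.367 for each). That loss cannot show dependence on a single tumor, because 5 tumors have few possible orders and can hardly pass adjustment over 6 pairs. In those fits r was 0.833 to 0.908 for Il2rb with Il2rg and 0.709 to 0.978 for Il21r with Il2rg.

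**Figure D4:**
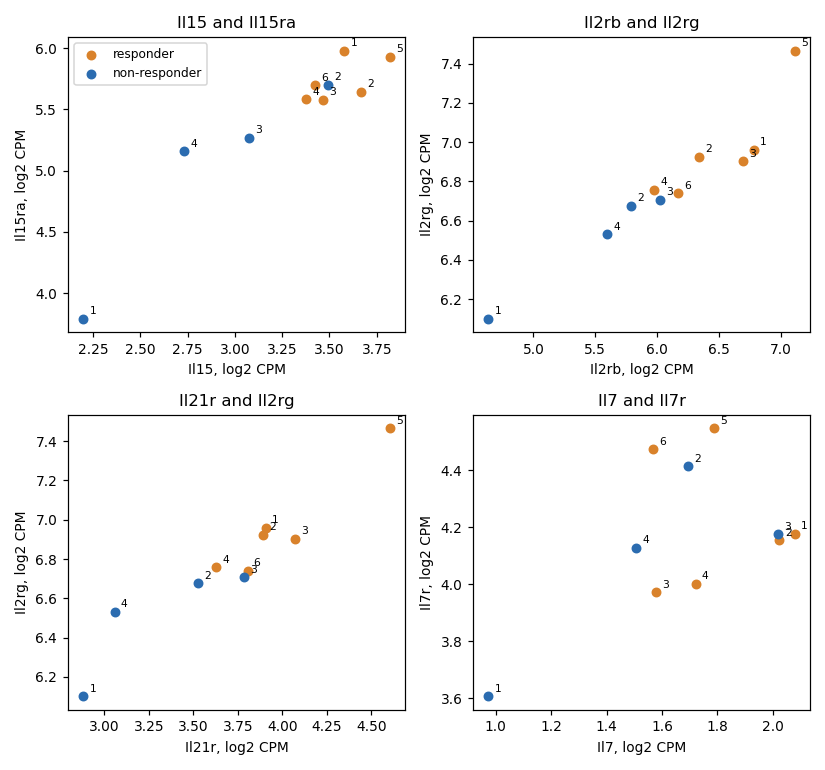
Levels of 4 partner pairs in log2 CPM, with 1 gene on each axis, in the numbered responders (orange) and non-responders (blue). Il15 and Il15ra lie along a line from non-responder 1 to responder 5 (r = 0.941 over 10 tumors), and Il7 and Il7r are scattered once non-responder 1 is set aside.

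As a description of likeness beyond the difference between groups, Pearson's r was taken over the 10 tumors after subtracting each group mean from log2 CPM. In such a measure the genes of a tumor share its library and its cell content, and non-responder 1 lies far from its group mean. Among members the highest values were those of Il2rb with Il2rg (0.913), Il2rg with Il21r (0.909) and Il15 with Il15ra (0.909), and the lowest was that of Il4ra with Jak3 (0.176). Jak3 stayed under 0.7 with every other member and was closest to Il7 (0.650). Over 13732 genes, those most like Il15ra were the MHC class I genes H2-Q10 (0.997), H2-T10 (0.994) and H2-M3 (0.992). Some genes of this family have near-identical sequence, and for those the split of reads is uncertain. Sppl2a, Acot4 and Tnfsf15 were closest to Il15 (each 0.982). Il2rb was closest to Mfng (0.982), Lcp2, an adaptor of T cell receptor signaling (0.979), and Rinl (0.978). Il2rg was closest to Nr1h3, a nuclear receptor of macrophages (0.981), Ctsw, a protease of cytotoxic lymphocytes (0.980), and Grap2, a T cell adaptor (0.976). Il21r was closest to Sytl2 (0.987), M6pr (0.982) and Tmem30a (0.973), and Il7r to Scp2 (0.983), Atp6v0e (0.973) and Aph1c (0.972). Il7 was closest to Clic4 (0.961), Ttc39b (0.954) and Fam220a (0.944). For Il4ra (Col24a1 0.935, Capzb 0.927 and Setbp1 0.923) and Jak3 (Olfr6 0.935, Dapk3 0.926 and Xirp2 0.922) the closest genes were less alike.

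Markers of the cells that carry these receptors or present IL-15 were set beside the members. Beside the counts called in each marker list, 4.71% of all genes tested were called higher, and all calls together came to 16 without non-responder 1, 17 without responder 3 and 0 without non-responder 4. In bulk tissue, fewer cells of a type and less RNA per cell cannot be told apart. The summed level of 10 T cell markers was 75.0 to 237 CPM in responders and 41.2 to 90.5 CPM in non-responders, with 0 of 10 called by edgeR. The 8 markers of CD8 and cytotoxic lymphocytes summed to 165 to 373 CPM against 39.4 to 166 CPM, with 2 of 8 called higher. The 8 NK cell markers summed to 70.1 to 145 CPM against 17.4 to 59.0 CPM, with 3 of the 7 tested called higher and Klra8 at no more than 1 count in a tumor. Macrophage markers, which mark cells that present IL-15, summed to 2919 to 4343 CPM against 2052 to 2761 CPM, with 5 of 8 called higher. The 7 markers of dendritic cells, which also present it, summed to 262 to 344 CPM against 134 to 299 CPM. Of these, 1 was called higher, with 4 estimates higher and 3 lower. Skeletal muscle, known to express Il15, also varied, with its 6 markers at 368 to 1172 CPM in responders and 327 to 430.0 CPM in non-responders, 2 of 6 called higher. The part of these cells in the differences of the members was not tested. Ptprc and the mean log2 CPM of the macrophage list were each higher in every responder than in every non-responder. The fits that follow with either as a covariate therefore cannot tell cell content apart from response.

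Ptprc itself was called higher (326 to 499 CPM in responders, 181 to 307 CPM in non-responders), and its mean log2 CPM differed by 0.62, which is subtracted from every member in a log2 ratio to Ptprc. On this measure Il2rb was 0.39 higher in responders, Il15ra 0.14, Il15 0.07 and Il21r 0.06, with overlapping groups for each. Without non-responder 1 the values were 0.24 for Il2rb, -0.11 for Il15ra and -0.01 for Il15, and without non-responder 4 the value for Il21r was -0.0034, so the last 3 had no fixed direction. The ratio was lower in responders for Il2rg (-0.16), Il7 (-0.37), Jak3 (-0.41), Il7r (-0.48) and Il4ra (-0.49). For 0 of the 9 members was the ratio lower in every responder, whereas 44.1% of all genes tested were lower in every responder on this measure. With Ptprc as a covariate in the edgeR fit, the log2 fold change was -0.04 for Il2rb, -0.05 for Il15, -0.16 for Il15ra, -0.14 for Il2rg and -0.12 for Il21r, and no member passed the test. That edgeR fit called 0 of all genes tested, with 845 genes and 0 of 9 members at an unadjusted p under 0.05.

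Against single cell types the members differed from one another. The mean log2 CPM of the NK cell list differed by 1.05 and that of the T cell list by 0.94. The NK cell mean includes Klra8, at no more than 1 count in a tumor, which draws its difference toward 0. Ratios to the list without Klra8 were not taken, so differences near 0 to this list hold only for the list with that gene. Il2rb, which NK cells carry at a high level, kept nearly the same ratio to the NK cell list in both groups, with a difference of -0.04 (responders 4.15 ± 0.15, SD, n = 6, and non-responders 4.20 ± 0.04, SD, n = 4). Its difference to the T cell list was 0.06 and that to the macrophage list 0.56, and all 3 overlapped between groups. Il2rg kept nearly the same ratio to the macrophage list, with a difference of 0.01, and differed by -0.49 against the T cell list and by -0.59 against the NK cell list. Il15 and Il15ra differed from the macrophage list by 0.24 and 0.31, with overlapping groups. Against the NK cell list 4 of the 9 members, Il2rg, Il4ra, Il7 and Jak3, were lower in every responder, beside 60.6% of all genes tested. With the T cell list as a covariate the log2 fold change was 0.20 for both Il2rb and Il15 (edgeR adjusted p = 0.665 and 0.754), and with the macrophage list it was -0.05 for Il2rb and 0.04 for Il15.

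Other genes around the common gamma chain were followed in 6 lists, which hold 69 genes, of which 63 passed the low-count filter. Of these, 10 were called higher in responders (15.9%) and 0 lower, beside the 4.71% and 3.35% of all genes tested. The lists were chosen with earlier results of these data known, so these shares are a description only. The median log2 fold change of the 63 genes was 0.17, with 49 estimates higher (48.2% of all genes tested had a higher estimate). The count of genes called rested on single tumors. It was 0 without responder 3, without non-responder 1 and without non-responder 4. It was 3 without responder 1, 2 or 5, 4 without non-responder 3 and 6 without responder 6. By edgeR's unadjusted p under 0.05 the count was 24 with all tumors, 22 without responder 3, 22 without non-responder 1 and 19 without non-responder 4. The counts over all genes in the same 4 fits were 4665, 4051, 3654 and 4106, with 16041 genes tested in the fit of all tumors. With Ptprc as a covariate the count of list genes was 0 by the adjusted p and 1 by the unadjusted p.

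Of the 6 other ligands, 2 passed the low-count filter. Il2 reached no more than 7 counts in a tumor, Il13 no more than 17 and Il21 no more than 34, and none of these 3 passed it. Il9 had 0 counts in every tumor, which allows up to 0.0783 to 0.130 CPM depending on the library, for counting error only. Il4 was measured at 1.31 to 1.68 CPM in responders and 1.57 to 1.81 CPM in non-responders (log2 fold change -0.11, edgeR adjusted p = 0.628), and Tslp, whose product signals through the IL-7 receptor alpha chain, was measured at 4.44 to 8.18 CPM in responders and 4.73 to 7.02 CPM in non-responders (log2 fold change 0.28, adjusted p = 0.351).

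Of the other receptor chains 0 of the 4 tested passed the test. Crlf2, the partner of the IL-7 receptor alpha chain in binding TSLP, came closest with 8.32 to 23.9 CPM in responders and 6.94 to 8.84 CPM in non-responders (log2 fold change 0.80, edgeR adjusted p = 0.0882). Il13ra1, which pairs with the IL-4 receptor alpha chain, had a log2 fold change of 0.30 (adjusted p = 0.351).

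Among 18 kinases, STATs and adaptors 6 were called higher in responders, with 17 estimates higher. Lck, the T cell kinase that associates with the beta chain, was higher by 1.11 (log2 fold change, edgeR adjusted p = 0.0413). Its level was 15.8 to 41.7 CPM in responders and 6.50 to 16.3 CPM in non-responders. Syk, another tyrosine kinase, was higher by 0.51 (adjusted p = 0.0451), and Pik3cd, the leukocyte PI3 kinase subunit, by 0.46 (adjusted p = 0.0432). Ptpn6, a phosphatase that limits cytokine signaling in blood cells, was higher by 0.54 (adjusted p = 0.0408). The adaptor Grb2 was higher by 0.28 (adjusted p = 0.0263). Stat5b, a transcription factor downstream of the beta and gamma chains, was higher by 0.17 (adjusted p = 0.0321). Stat5b stood at 71.6 to 78.2 CPM in responders and 64.6 to 69.1 CPM in non-responders.

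Of 18 targets of STAT5 2 were called higher in responders, and 13 estimates were higher and 5 lower. Bcl2, which encodes a survival protein, was higher by 0.42 (log2 fold change, edgeR adjusted p = 0.0283). Its level was 32.2 to 42.6 CPM in responders and 23.5 to 29.5 CPM in non-responders. Mcl1, of the same family, was higher by 0.18 (adjusted p = 0.0478). Bcl2l1, a further member of that family named here after its values were seen, had an estimate of -0.17 (adjusted p = 0.258). Of the 13 targets of STAT6 tested, Pparg was higher by 0.99 (adjusted p = 0.0341), and 7 estimates were higher and 6 lower. Set beside Pparg, 6 adipocyte markers summed to 18.4 to 78.9 CPM in responders and 8.71 to 25.4 CPM in non-responders. All 5 of them that were tested had a higher estimate, with 0 called. The part of fat cells in the level of Pparg was not tested. Among 8 genes of the dendritic and myeloid cells that present IL-15, Xcr1, the chemokine receptor of cross-presenting dendritic cells, was higher by 1.46 (adjusted p = 0.0222). It was the 1 gene of that list that was called. In the list 7 estimates were higher and 1 was lower, with Flt3 at 0.01 and Cd80 at -0.18. Xcr1 stood at 4.23 to 8.31 CPM in responders and 1.70 to 3.21 CPM in non-responders, with no overlap.

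**Figure D5:**
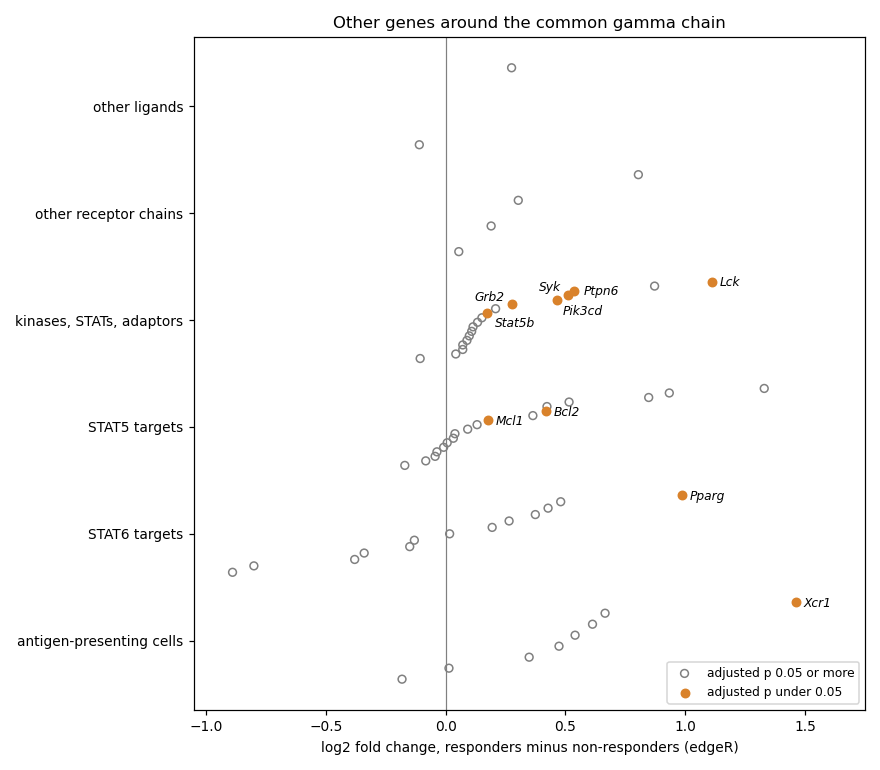
Log2 fold change, responders minus non-responders (horizontal axis), of the tested genes of 6 lists around the common gamma chain, 1 circle for each gene, spread vertically within a list for legibility. The 10 filled circles passed an edgeR adjusted p of 0.05, and 6 of them are kinases, STATs or adaptors.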

How the data were processed

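PolyA RNA libraries from 10 resected CT26 tumors were grouped by the response in the labels, 6 responders and 4 non-responders, numbered in accession order. The authors reviewed reads with FastQC, quantified transcripts with Kallisto and summed them with tximport on mm10. The deposited values are expected counts (45.1% fractional), not scaled to depth. Annotation release, tximport scaling and strand setting are not given in the sources used here, and pseudoalignment can split reads of overlapping or near-identical genes.

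Expected counts were rounded. In R 4.3.3, edgeR 4.0.16 was run with filterByExpr defaults (minimum count 10, minimum total 15), TMM and the two-sided quasi-likelihood test, with Benjamini-Hochberg adjustment over 16041 genes and a threshold of 0.05. SE is the absolute log2 fold change over the square root of F. CPM used TMM-scaled totals, and log2 CPM a prior count of 2. The 9633 rows without a name kept their identifier and took a symbol from a reference table. Levels per kb used exon models of GRCm38 (GENCODE). Motif shares were counted over RefSeq promoter windows. Alternatives were DESeq2 1.42.0 (test and size factors), limma 3.58.1 (voom), no filter, other prior counts, thresholds of 0.1 and 0.25, covariates, and leaving out each tumor. Correlations used exact permutation of the 6 responders (720 orders) or 100000 permutations over 10 tumors, two-sided. Scripts were tested on simulated data.

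Members and lists were chosen with earlier results of these data known. Named genes are the 9 members, the list genes with an adjusted p under 0.05 (or the 2 with the smallest p where none passed), the 3 genes most like each member and the marker genes beside a result.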

Additional observations from a re-analysis of the deposited data

Results flagged for a closer look

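Of 18 groups of values examined (9 members in 2 groups), 2 held a tumor set apart from the others of its group, and chance alone gives about 0.9. The level of Il2rg in responder 5 was 7.47 log2 CPM, with the other 5 responders between 6.74 and 6.96, a gap of 0.696 of the range of the group. Jak3 in responder 2 was at 7.34 log2 CPM, with the others between 6.96 and 7.09, a gap of 0.653 of the range. Both tumors lay at the high end of the responders. Leaving out responder 5 gave an r of 0.562 between Il2rg and Jak3 within responders in place of -0.17.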

How the results depend on the processing

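The 10 fits that each left out 1 tumor kept the direction of all 9 members. They called 0 to 1 members (Il15 without non-responder 2, Il2rb without responder 4), 0 to 14 pathway genes against 10 and 0 to 1897 genes in all against 1293. All genes called fell to 0 without non-responder 4 (4106 at an unadjusted p under 0.05, against 4665 with all tumors), 16 without non-responder 1 and 17 without responder 3. DESeq2 called 4 members, 18 pathway genes and 2602 genes in all. An adjusted p under 0.1 called 4 members, 18 pathway genes and 2999 genes, and one under 0.25 called 6, 29 and 6043. By edgeR with Ptprc as a covariate 0 genes were called (845 at an unadjusted p under 0.05), with the T cell list 1 gene (1653) and with the macrophage list 0 (1106), and 0 pathway genes with any of the 3. Estimates turned negative with Ptprc for Il2rb (-0.045), Il2rg (-0.14), Il7 (-0.19), Il7r (-0.31), Il15 (-0.054), Il15ra (-0.16) and Il21r (-0.12), with the T cell list for Il4ra (-0.041), Il7 (-0.095) and Il7r (-0.22), and with the macrophage list for Il2rb (-0.055), Il2rg (-0.13), Il4ra (-0.040), Il7 (-0.030), Il7r (-0.43), Il15ra (-0.14) and Il21r (-0.10). The cause was not tested. With DESeq2 size factors the r of Il2rb with Il2rg was 0.862 and that of Il21r with Il2rg 0.953, both with an adjusted exact permutation p of 0.05. Leaving out each responder gave 0.833 to 0.908 and 0.709 to 0.978, none with an adjusted p under 0.05 on 5 tumors, 0.406 to 0.804 for Il15 with Il15ra, -0.42 to 0.262 for Il7 with Il7r (0.00014 without responder 2 and 0.262 without responder 6), -0.33 to 0.562 for Il2rg with Jak3 (0.562 without responder 5) and 0.540 to 0.693 for Il4ra with Il2rg. With the length of the longest transcript the mean levels in responders were 75.5 CPM per kb for Il2rg, 30.05 for Il4ra, 0.707 for Il7, 5.31 for Il7r, 6.16 for Il15, 23.1 for Il15ra, 6.46 for Il21r and 33.3 for Jak3. Il2rb was at 22.6 with that length, below Il15ra, and at 22.1 with all exons. By counts, Il7 (47 to 128 in a tumor) and Il15 (112 to 502) had the least depth.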
